A study of Homo sapiens with 13 samples.

Results

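The interferon regulatory factor genes IRF1, IRF2, IRF3, IRF4, IRF5, IRF7, IRF8 and IRF9 were followed by gene name in RNA sequencing counts of HuT78 cells. They are 8 of the 45744 genes in the table. HuT78 is an established human T cell line from a patient with Sézary syndrome, a cutaneous T cell lymphoma with malignant cells in the blood. All cells were cultured for 72 h with 10 nM chaetocin (4 libraries), 10 nM F5446 (3 libraries), 1 µM romidepsin (4 libraries) or the vehicle DMSO alone (2 libraries). Chaetocin, which is made by fungi, and the code-named compound F5446 both block SUV39H1, an enzyme that methylates histone H3. Romidepsin blocks histone deacetylases and is a drug for cutaneous T cell lymphoma. The whole design rests on 1 cell line, and an untreated culture without DMSO was not analysed here.

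The factors share an N-terminal DNA-binding domain that reads GAAA repeats in interferon-responsive promoters. IRF3 and IRF7 are activated by phosphorylation downstream of nucleic acid sensors and switch on interferon genes. IRF9 is the DNA-binding subunit of the complex ISGF3, which carries the type I interferon signal to the nucleus. IRF1 is itself induced by interferon gamma, and IRF2 competes for many of the same sites. IRF4, IRF5 and IRF8 act mainly in blood cells. IRF4 is induced by antigen receptor signalling and sustains activated lymphocytes and several lymphoid malignancies, while IRF8 is best known from myeloid and B cells.

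Library totals ran from 19901052 to 30816188 counts. Chaetocin replicate 3 stood apart from the other libraries, with 15.9% of its counts on mitochondrially encoded genes against 5.22 to 12.7% elsewhere. The 10 T cell markers summed to 764 to 1091 CPM, with CD3E between 176 and 267 CPM and CD4 between 134 and 269 CPM. Others of that list were low, with means of 8.88 CPM for CD2, 3.51 for CD5 and 0.145 for CD28. CPM denotes counts scaled to 1e6 per library at the normalized library size. The 10 myeloid markers summed to 1.55 to 4.91 CPM, with CD68 and S100A8 at 0 in all libraries. The 7 B cell markers summed to 40.7 to 93.0 CPM, almost all from CD79A, MS4A1 and CD79B, while PAX5 and CD22 had means under 1 CPM. In such bulk samples, fewer cells that transcribe a gene and less RNA per cell cannot be told apart.

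The family was ordered in steep steps. Over the 13 libraries the mean was 217 CPM for IRF4, 121 for IRF1, 87.5 for IRF2, 54.2 for IRF3, 18.3 for IRF5, 3.71 for IRF7, 1.45 for IRF8 and 0.111 for IRF9. IRF4 thus lay above 95.6% of the tested genes by mean CPM, and IRF8 above 28.9%. Levels of different genes can be set side by side only per length. Per kilobase of all merged exons, IRF4 was at 36.7 ± 16.6, IRF2 at 28.1 ± 6.18, IRF1 at 15.5 ± 3.37 and IRF3 at 14.3 ± 0.834 CPM (SD, n = 13). Per kilobase of the principal transcript these 4 lay closer together, between 31.1 for IRF3 and 40.6 for IRF4, in the same order, so the distances between them rest partly on the gene model and neighbours lie within the larger of their SDs. Per kilobase of merged exons IRF4 lay above IRF2 in every library with replicate number 1 or 2. With number 3 or 4 IRF2 lay above IRF4, as in DMSO replicate 4 at 32.2 against 23.1, except in romidepsin replicate 4. By group mean IRF2 was the higher with F5446 alone, at 28.8 against 27.7. On both scales IRF5, IRF7, IRF8 and IRF9 followed in that order, at 4.17, 1.41, 0.281 and 0.0292 CPM per kilobase of merged exons. The IRF9 value rests on 34 counts and on a principal transcript covered by another gene model, as described below, so its level may not be comparable with the others. The members also differed in how much they moved between libraries: the SD was 5.84% of the mean for IRF3, 20.8 to 22.0% for IRF1, IRF2, IRF5 and IRF7, 45.2% for IRF4 and 48.4% for IRF8.

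**Figure D1:**
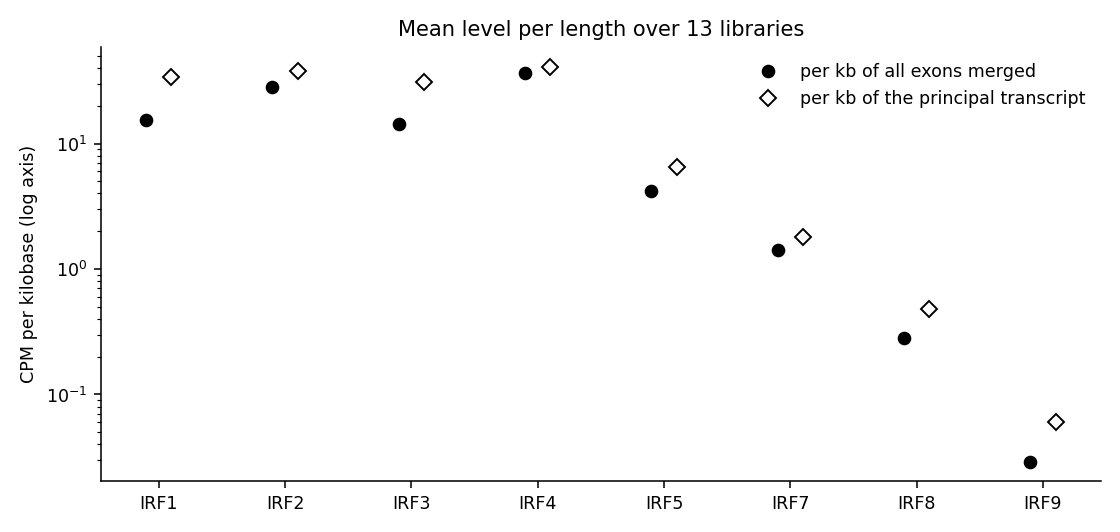
Mean CPM per kilobase of each of the 8 genes over the 13 libraries on a log axis, with filled circles for merged exon length and open diamonds for the principal transcript in GENCODE 29. IRF1 to IRF4 lie between 14.3 and 40.6, and IRF9, whose principal transcript is covered by another gene model, lies lowest at 0.0292 and 0.0603.

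Of the 8 genes, 7 passed the filter on low counts, IRF9 being the exception. None of the 7 was called in any comparison of treatments, where called means an adjusted p under 0.05 in edgeR's quasi-likelihood test. In chaetocin against DMSO 0 of 7 were called, as were 0% of the 17252 tested genes. In F5446 against DMSO, in romidepsin against DMSO and in chaetocin against F5446 the counts were likewise 0 of 7 members and 0% of tested genes. DESeq2 and limma-voom also called 0 members in each of these 4 comparisons. In the same order DESeq2 called 10, 1, 1 and 2 of the 17252 genes, and limma-voom 1, 0, 0 and 0. For chaetocin against DMSO, DESeq2 gave an adjusted p for 6 of the 7 members, IRF8 being the exception. At an unadjusted p under 0.05 stood 1 member in chaetocin against DMSO (4.07% of tested genes), 1 in F5446 against DMSO (2.48%), 0 in romidepsin against DMSO (2.82%) and 1 in chaetocin against F5446 (3.4%). Libraries of the 2 groups did not overlap for 1 of 7 members with chaetocin (11.3% of tested genes), 2 with F5446 (18.6%), 2 with romidepsin (10.3%) and 1 between chaetocin and F5446 (5.38%). A single F-test over all 4 groups called 0 members and 0.0232% of tested genes, with 1 member, IRF8, at an unadjusted p under 0.05 (3.15%). Whether replicates were separate cultures is not in the labels, and each p-value reflects the spread among these libraries, which may be technical. The treatments against DMSO all share the same 2 DMSO libraries.

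**Figure D2:**
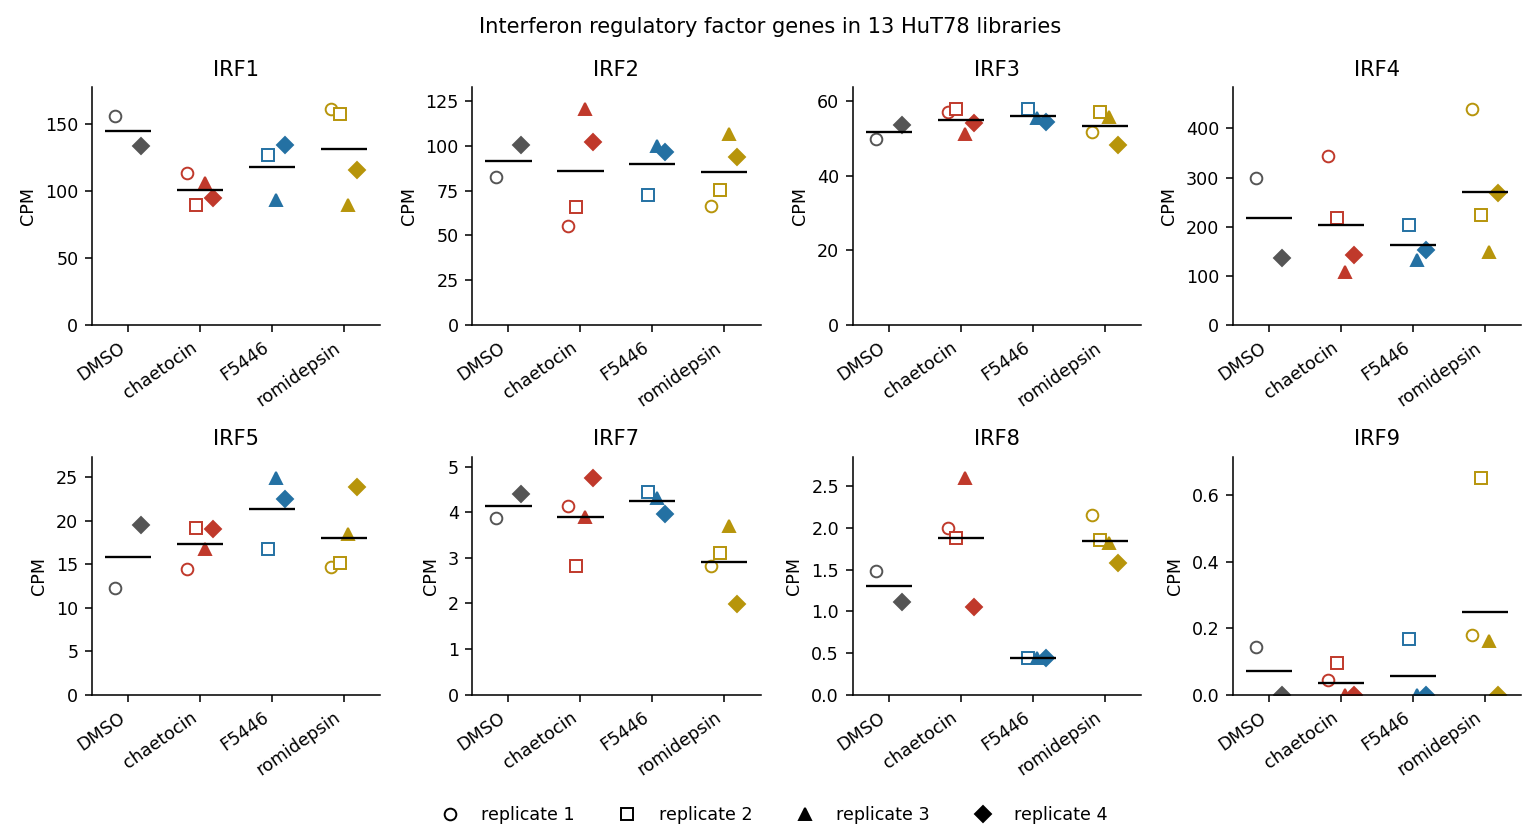
CPM of each gene in every library by treatment, with open symbols for replicates 1 and 2, filled symbols for 3 and 4, and a bar at the group mean. The 3 F5446 libraries sit between 0.438 and 0.445 CPM for IRF8, on 9 to 13 counts each, below the libraries of the other groups, and IRF4 spreads from 108 to 439.9 CPM.

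IRF1, the interferon gamma-induced activator of antigen presentation genes, was lower with chaetocin than in either DMSO library, without passing the test. It was at 113, 89.9, 106 and 95.2 CPM in chaetocin replicates 1 to 4. The DMSO libraries were at 156 and 134 CPM, so the groups did not overlap. The difference on the log2 scale was -0.52, with a 95% interval of -0.93 to -0.11 (edgeR adjusted p = 1, unadjusted p = 0.0158). It was -0.63 between libraries numbered 1 or 2 and -0.41 between those numbered 3 or 4. Every such value against DMSO, here and below, rests on 1 DMSO library, and for F5446 in numbers 1 and 2 on 1 F5446 library. The IRF1 difference was -0.54 without chaetocin replicate 3, -0.40 without DMSO replicate 1 and -0.63 without DMSO replicate 4. At number 3, which has no DMSO library, chaetocin was the highest of 3 libraries. F5446 libraries were at 127, 93.3 and 135 CPM for replicates 2, 3 and 4, which overlaps both the chaetocin and the DMSO range without covering either. Romidepsin libraries were at 162, 158, 89.4 and 116 CPM, the widest spread of any group for this gene. By group mean IRF1 was ordered DMSO, romidepsin, F5446 and chaetocin, and each neighbour in that order overlapped the next. Chaetocin differed from F5446 by -0.23 on the log2 scale (95% CI -0.60 to 0.14, edgeR adjusted p = 0.999).

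Among the members' windows that were searched, those of IRF1 and IRF9 were the ones that held a GAS-type match, the palindromic element through which interferon gamma acts. They are shown because the targets of interferon gamma are among the genes described with the factors. The motif was written TTCNNNGAA, is its own reverse complement, and was sought in the 250 bases before each RefSeq start, where 6.57% of 35116 windows hold it. Capitals mark the match, which runs from base -124 to -116 before the IRF1 start and from -63 to -55 before that of IRF9. The windows lie on GRCh38.p14 at chr5:132490774-132491023, minus strand, and chr14:24161015-24161264, plus strand.
IRF1: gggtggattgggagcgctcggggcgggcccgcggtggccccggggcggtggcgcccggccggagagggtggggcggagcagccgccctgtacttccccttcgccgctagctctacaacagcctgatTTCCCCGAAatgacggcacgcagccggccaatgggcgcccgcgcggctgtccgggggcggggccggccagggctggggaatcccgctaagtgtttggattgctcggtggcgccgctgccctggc
IRF9: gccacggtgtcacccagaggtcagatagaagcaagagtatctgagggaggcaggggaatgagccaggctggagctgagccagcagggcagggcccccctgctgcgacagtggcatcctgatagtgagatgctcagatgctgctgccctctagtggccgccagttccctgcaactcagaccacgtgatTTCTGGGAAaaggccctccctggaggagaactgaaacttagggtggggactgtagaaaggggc
There were 9 windows for 5 members, with IRF4 and IRF1 having 1 window each, IRF5 4, IRF8 2 and IRF9 1. IRF2, IRF3 and IRF7 were not matched. Both IRF8 windows, from bases 85902580 and 85902765 of chromosome 16, lie inside the gene, whose annotated start is base 85898803. The 4 IRF5 windows, the first from base 128937677 of chromosome 7, likewise begin after that gene's annotated start at base 128937612. The bases before these starts were not searched, so the IRF8 and IRF5 results do not cover them. The IRF9 window runs past that gene's annotated start at base 24161053, and its GAS-type match lies inside the annotated gene. An ISRE-type match, sought on both strands as GAAA, any 2 bases and GAAA again, was in none of the 9 windows and in 3.02% of all windows. Such a match describes letters only and does not show a bound site.

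IRF2, the usual antagonist of IRF1, had group means of 85.4 to 91.5 CPM, closer together than the libraries within any group. Chaetocin libraries ran from 55.4 to 121 CPM, F5446 from 72.6 to 99.8, romidepsin from 66.3 to 107, and DMSO stood at 82.7 and 100.3 CPM. The log2 fold changes against DMSO were -0.09 with chaetocin (95% CI -0.66 to 0.48), -0.03 with F5446 (-0.63 to 0.57) and -0.10 with romidepsin (-0.67 to 0.47). Intervals of this width leave changes of up to about 0.6 in either direction unresolved for this gene.

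IRF3, the constitutively made sensor-activated factor, was the steadiest member. All 13 libraries lay between 48.1 and 57.9 CPM, a ratio of 1.2 from lowest to highest. F5446 libraries were at 57.9, 55.6 and 54.3 CPM and DMSO at 49.7 and 53.5 CPM, so these groups did not overlap, although the difference was only 0.12 on the log2 scale, with a 95% interval of -0.19 to 0.42 (edgeR adjusted p = 1). With chaetocin the log2 fold change was 0.09 (95% CI -0.20 to 0.39), with romidepsin 0.04 (-0.25 to 0.34), and between chaetocin and F5446 it was -0.02 (-0.28 to 0.23).

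IRF7, the interferon-inducible partner of IRF3 that amplifies the type I response, was low, with 43 to 132 counts a library. Romidepsin libraries were at 2.82, 3.10, 3.70 and 1.996 CPM, all below the DMSO libraries at 3.88 and 4.40. On the log2 scale romidepsin differed from DMSO by -0.51, with a 95% interval of -1.25 to 0.24 (edgeR adjusted p = 1), by -0.38 within replicate numbers 1 and 2 and by -0.68 within 3 and 4. Chaetocin at 2.82 to 4.74 CPM and F5446 at 3.96 to 4.44 CPM both overlapped DMSO, with log2 fold changes of -0.09 and 0.04.

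IRF4, the antigen receptor-induced factor and the member with the highest mean per length over the 13 libraries, was spread too widely for the comparisons to resolve. Chaetocin replicates 1 to 4 were at 343, 218, 108 and 142 CPM. F5446 replicates 2, 3 and 4 were at 204, 133 and 153 CPM, and DMSO replicates 1 and 4 at 299 and 136 CPM. Romidepsin replicates 1 to 4 were at 439.9, 223, 149 and 268 CPM. All groups overlapped, and in each of them the library or libraries numbered 1 or 2 included the highest value. Against DMSO the log2 fold change was -0.10 with chaetocin (95% CI -1.29 to 1.09), -0.41 with F5446 (-1.67 to 0.84) and 0.31 with romidepsin (-0.90 to 1.53), each with an edgeR adjusted p of 1. The direction depended on single DMSO libraries: without DMSO replicate 1 it was 0.58 with chaetocin and 0.26 with F5446, and without DMSO replicate 4 it was -0.14 with romidepsin. It was also turned without chaetocin replicate 3 (0.11) or replicate 4 (0.039), and without romidepsin replicate 1 (-0.026).

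Within a replicate number the IRF4 values were less spread, a pattern noticed after its values were seen. Romidepsin held the highest IRF4 level in each of the 4 replicate numbers. At number 1 it was at 439.9 CPM against 299 with DMSO, a ratio of 1.47, and at number 4 it was at 268 against 136, a ratio of 1.97. Chaetocin stood at 1.15 and 1.04 times the DMSO library of the same number, and F5446, present only at number 4, at 1.12 times. With the replicate number as a block the log2 fold change of romidepsin was 0.65, with an edgeR adjusted p of 0.228 and an unadjusted p of 0.000132, and the gene was still not called. The labels do not say what a replicate number stands for.

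**Figure D3:**
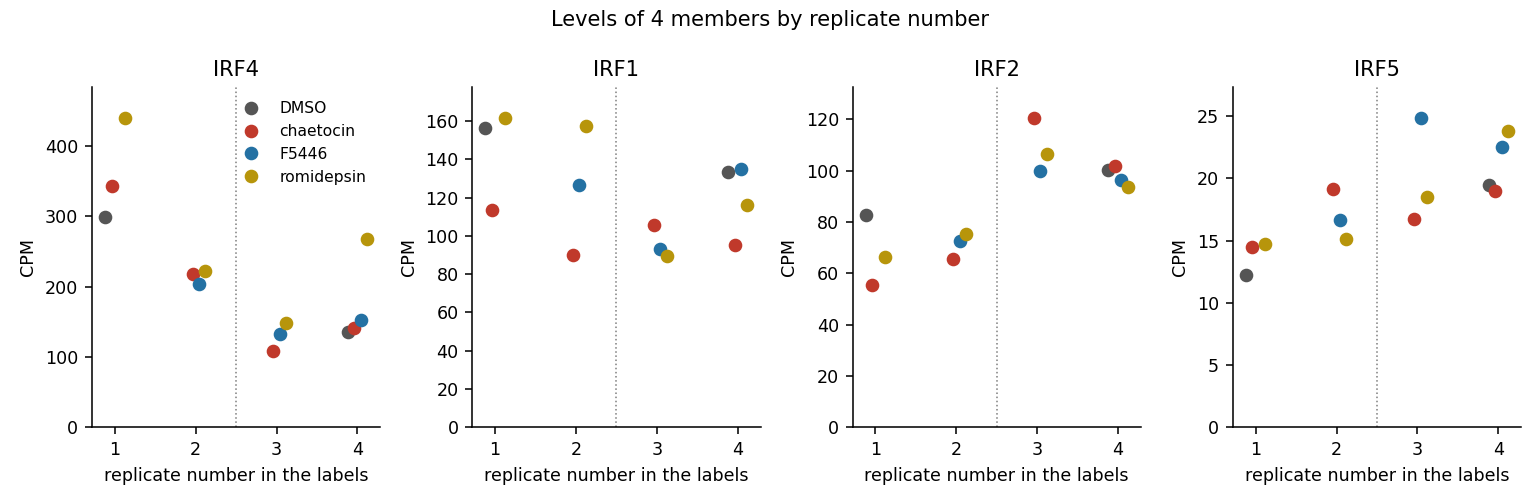
CPM of IRF4, IRF1, IRF2 and IRF5 by the replicate number in the labels, coloured by treatment, with a dotted line between numbers 2 and 3. IRF2 lies at 55.4 to 82.7 CPM to the left of the line and 93.6 to 121 to the right. Romidepsin is the highest point for IRF4 at every number, by little at number 2, and numbers 2 and 3 have no DMSO library.

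The division by replicate number ran through several members. It was chosen because earlier results of these data showed the libraries parting along it, so its tests describe that division and are not independent of it. With treatment in the fit, 3 of the 7 tested members were called between numbers 3 and 4 and numbers 1 and 2, where 15.8% of tested genes were called. At an unadjusted p under 0.05 stood 4 of the 7, and 27.7% of tested genes. IRF2 was higher in numbers 3 and 4 by 0.57 on the log2 scale (95% CI 0.39 to 0.75, edgeR adjusted p = 4.96e-05). Its 7 libraries there, from 93.6 to 121 CPM, did not overlap the 6 others, from 55.4 to 82.7. How many of all tested genes part in this way was not counted. IRF5 was higher by 0.40 (95% CI 0.14 to 0.66, edgeR adjusted p = 0.0304), with medians of 19.5 against 14.9 CPM. IRF4 was lower, with a log2 difference of -0.87 (95% CI -1.40 to -0.34, edgeR adjusted p = 0.0363) and medians of 142 against 261 CPM. The IRF2 call held without each of the 13 libraries. The IRF4 call held only without chaetocin replicate 2, F5446 replicate 4 or romidepsin replicate 2 or 4, and its adjusted p ran up to 0.109 without the other libraries. The IRF5 call held only without chaetocin replicate 2, 3 or 4, F5446 replicate 4 or romidepsin replicate 3, with an adjusted p of up to 0.121 otherwise. IRF1 was lower in numbers 3 and 4 by a log2 difference of -0.27 (edgeR adjusted p = 0.0863), and was called without chaetocin replicate 2 (0.0242), chaetocin replicate 3 (0.0458) or F5446 replicate 4 (0.0239). Mitochondrial counts made up 8.75 to 12.7% of the libraries numbered 1 or 2, and 5.22 to 8.9% of those numbered 3 or 4 apart from chaetocin replicate 3. Among T cell markers 4 of 9 tested were called higher in numbers 3 and 4 (median 0.27), and 0 lower. Of 8 markers of Sézary cells 3 were called higher, namely TOX, NEDD4L and GATA3 (median 0.53), and 0 lower. Single markers of other lists were called in both directions, CD79A at 1.00 and PDGFRB at 0.82, and MS4A1 at -0.54 and CDH1 at -0.85 on the log2 scale. The part of any of these in the division was not tested.

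IRF5, a factor of Toll-like receptor signalling, had its highest mean with F5446. The F5446 libraries were at 16.7, 24.8 and 22.5 CPM and the DMSO libraries at 12.3 and 19.5, which overlap. On the log2 scale F5446 exceeded DMSO by 0.43, with a 95% interval of -0.11 to 0.97 (edgeR adjusted p = 1), by 0.44 in numbers 1 and 2 and by 0.28 in 3 and 4. Leaving out DMSO replicate 1 gave 0.12, and leaving out DMSO replicate 4 gave 0.80. Chaetocin at 14.5 to 19.1 CPM and romidepsin at 14.7 to 23.9 CPM gave log2 fold changes of 0.13 and 0.19.

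IRF8, the myeloid and B cell factor, was scarce in HuT78 but was the member that stood farthest apart between the treatments. In F5446 replicates 2, 3 and 4 it had 13, 12 and 9 counts, which is 0.438, 0.443 and 0.445 CPM. Chaetocin replicates 1 to 4 had 46, 60, 52 and 27 counts, or 2.001, 1.88, 2.59 and 1.05 CPM. Romidepsin libraries lay between 1.58 and 2.15 CPM, and DMSO had 31 and 23 counts, or 1.49 and 1.11 CPM. Every F5446 library was thus below every library of the other 3 groups, and the share of all genes parted in this way was not counted. Between 2 groups, libraries did not overlap for 18.6% of tested genes in F5446 against DMSO and 5.38% in chaetocin against F5446. Against DMSO the log2 fold change of F5446 was -1.54 (95% CI -2.82 to -0.27, edgeR adjusted p = 1, unadjusted p = 0.0197). It was -1.59 in numbers 1 and 2, with 1 F5446 and 1 DMSO library, and -1.18 in 3 and 4, with 1 DMSO library. Apart from fits with single libraries left out, the unadjusted p ran from 0.00937 in DESeq2 to 0.0776 in edgeR on the 2 groups compared. Chaetocin exceeded F5446, given at the same dose and time, by 2.07 on the log2 scale (95% CI 0.94 to 3.21), a 4.21-fold difference of the fitted means. That difference had the 14th smallest p among 17252 genes and was not called (edgeR adjusted p = 0.999, unadjusted p = 0.00101). DESeq2 gave 2.10 with an adjusted p of 0.124, and over the alternatives and with single libraries left out the value stayed between 1.89 and 2.27. Chaetocin and romidepsin had log2 fold changes of 0.53 (95% CI -0.67 to 1.73) and 0.51 (-0.70 to 1.71) against DMSO. By group mean the order was chaetocin, romidepsin, DMSO and F5446, where chaetocin overlapped both romidepsin and DMSO, while romidepsin and DMSO, and DMSO and F5446, did not overlap.

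Markers of cell types known for IRF8 were set beside these values. The summed myeloid markers were at 1.55 to 1.82 CPM in DMSO, 2.24 to 4.91 with chaetocin, 2.42 to 3.30 with F5446 and 1.91 to 4.55 with romidepsin, and 2 of the 10 were at 0 in all libraries. These sums rest mainly on ITGAM and CSF1R, with means of 1.98 and 0.799 CPM, and 9 of the 10 markers had means under 1 CPM. The 5 markers of plasmacytoid dendritic cells summed to 0 in DMSO, 0 to 0.688 CPM with chaetocin, 0.554 to 0.673 with F5446 and 0.389 to 0.750 with romidepsin. The B cell marker sums were 48.8 to 62.4 CPM in DMSO, 40.7 to 93.0 with chaetocin, 55.3 to 83.9 with F5446 and 55.6 to 87.0 with romidepsin, which overlap. The part of other cells in the IRF8 counts was not tested.

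**Figure D4:**
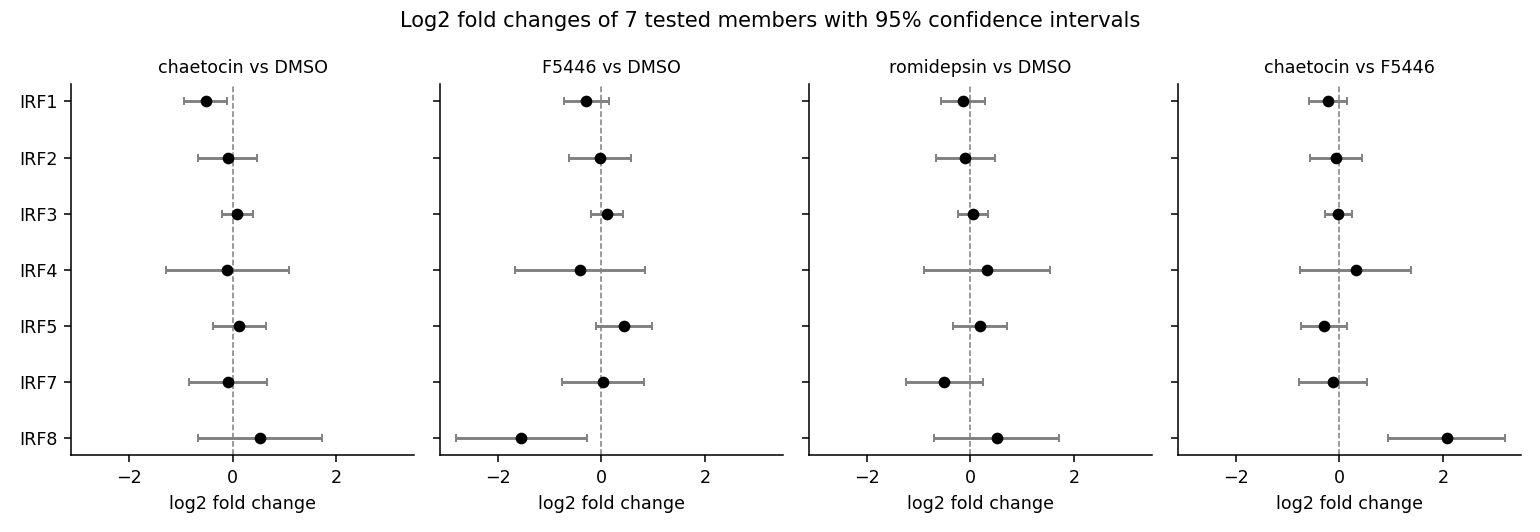
Log2 fold changes (points) with 95% confidence intervals (bars) of the 7 tested members in 4 comparisons, positive where the treatment named first is higher. IRF8 lies at -1.54 for F5446 against DMSO and 2.07 for chaetocin against F5446, and the intervals of IRF4 span over 1 log2 unit to both sides in the comparison of chaetocin with DMSO.

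IRF9, the DNA-binding subunit of ISGF3, was nearly absent from the table. It had 34 counts in all, between 0 and 13 a library, and 6 libraries had none, which allows up to 0.111 to 0.150 CPM in them (3 counts, counting error only). Its neighbour RNF31, a subunit of the linear ubiquitin ligase complex made in most cells, had 19 counts in all, and AL136295.5, a gene model on the same strand, had 6. In GENCODE 29 the exons of AL136295.5 cover 100% of the principal IRF9 transcript and 48.4% of all IRF9 exon bases. HTSeq, in its usual modes, leaves a read that fits more than 1 gene uncounted, and neither the mode nor the annotation behind this table is known here. The part of this overlap in the IRF9 counts was not tested, and IRF9 did not pass the filter. Fitted without a filter it gave unadjusted p-values of 0.553 to 0.915 in the 4 comparisons of treatments, each with an edgeR adjusted p of 1, on counts too few to resolve a difference. No gene shares same-strand exons with the other 7 members. On the opposite strand C5orf56 and AC116366.3 cover 22.0% of IRF1 exon bases, and BCL2L12 covers 19.3% of those of IRF3, so without a known strand setting some reads of these 2 members may be uncounted or belong to the partner.

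The genes around the factors were taken from lists by role and read by counts and medians. Among ligands, 2 of 21 in the table had enough counts to be tested, IFNG and IFNL1. IFNG, the type II interferon, was at 0.402 ± 0.397 CPM in chaetocin libraries (SD, n = 4), against 3.0 ± 2.40 in those with DMSO (SD, n = 2). The log2 fold change was -2.88 (edgeR adjusted p = 1, unadjusted p = 0.00345), and -2.49 without chaetocin replicate 3. Of 11 interferon receptor, JAK and STAT genes 0 were called, 9 lay below 0 with chaetocin (median -0.15), 4 with F5446 (median 0.06) and 6 with romidepsin (median -0.05), where the median of all tested genes was 0.01 in each. Between chaetocin and F5446 8 of the 11 lay below 0 (median -0.11).

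Downstream genes were also not called one by one in the comparisons of treatments. Of 25 tested IRF1-type and interferon gamma targets 20 lay below 0 with chaetocin (median -0.34, 8 at an unadjusted p under 0.05), 10 with F5446 (median 0.02) and 6 with romidepsin (median 0.13). Against F5446, chaetocin was lower for 22 of the 25 (median -0.37, 10 at an unadjusted p under 0.05). Without chaetocin replicate 3 the counts below 0 were 20 and 23 of 25, with medians of -0.36 and -0.35. In these comparisons 49.0, 48.6, 48.9 and 50.1% of all tested genes lay below 0. GBP2, an interferon-inducible GTPase and the list's gene with the smallest p for chaetocin, was at 14.5 ± 1.17 CPM with chaetocin and 24.5 ± 2.203 with DMSO (log2 fold change -0.76, edgeR adjusted p = 0.842). In the F-test over all 4 groups GBP2 was called (edgeR adjusted p = 0.0497), although with single libraries left out it was called only without DMSO replicate 1 (0.0269) or 4 (0.021) and its adjusted p ran up to 0.338. Its levels in the other groups were 19.8 ± 3.69 CPM for F5446 and 32.6 ± 6.85 for romidepsin. Of 39 ISGF3-type genes 26 lay below 0 with chaetocin (median -0.15), 20 with F5446 (median -0.06) and 16 with romidepsin (median 0.09). OAS2, an oligoadenylate synthetase, was at 60.5 ± 8.55 CPM with chaetocin and 93.1 ± 1.57 with DMSO (log2 fold change -0.62, edgeR adjusted p = 0.636).

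Sensors and kinases that activate IRF3 and IRF7 had medians between -0.09 and 0.03 in the 3 comparisons with DMSO, with 0 of 17 called. The 12 IRF-binding regulators had medians between -0.01 and 0.06, and 0 were called. The 15 partners and circuit genes of IRF4 had medians between -0.03 and 0.03 and 0 calls. PRDM1, which encodes BLIMP1 and is a known IRF4 target, was at 57.7 ± 6.66 CPM with romidepsin and 39.2 ± 1.32 with DMSO (log2 fold change 0.56, edgeR adjusted p = 1, unadjusted p = 0.0051), and the difference was 0.54 in numbers 1 and 2 and 0.56 in 3 and 4. PRDM1 was at 46.0 ± 8.16 CPM with chaetocin and 47.6 ± 6.56 with F5446. IL2RA of the same list was lower with romidepsin (log2 fold change -1.06, edgeR unadjusted p = 0.0537). The part of IRF4 in these values was not tested.

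**Figure D5:**
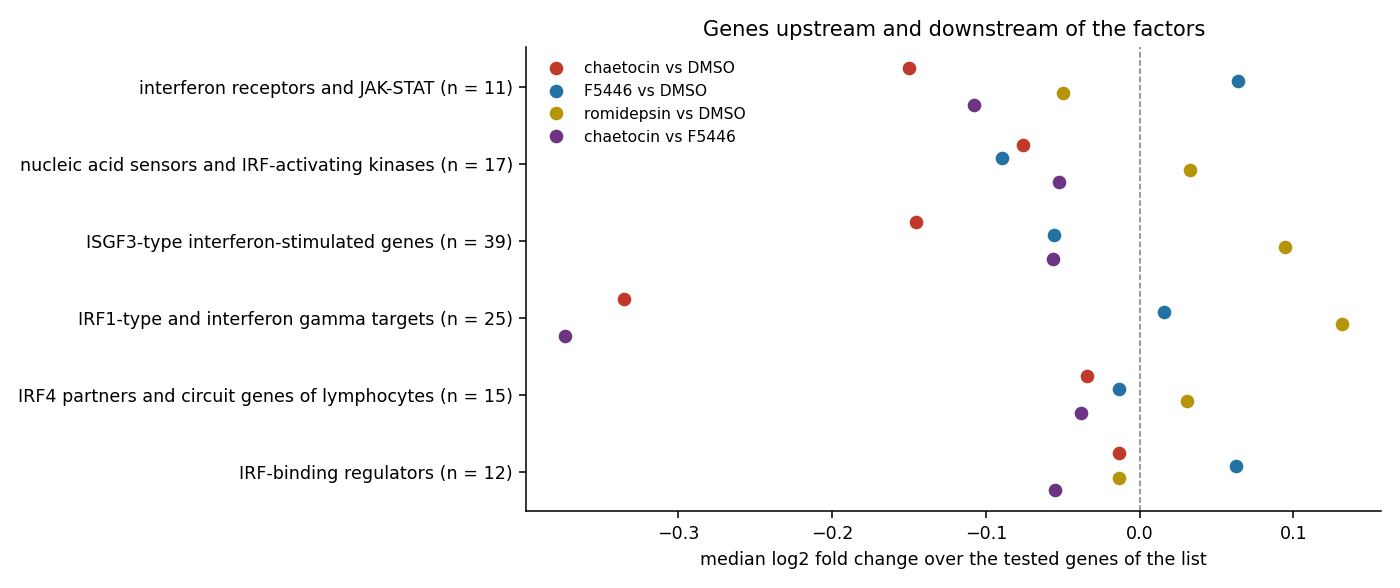
Median log2 fold change of 6 lists of genes around the factors in 4 comparisons, with the number of tested genes beside each name. The list of IRF1-type and interferon gamma targets lies at -0.34 for chaetocin against DMSO and -0.37 for chaetocin against F5446, and 0.02 and 0.13 for F5446 and romidepsin against DMSO; interferon ligands are left out because 2 were tested.

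The genes whose levels ran most like a member's were taken as the 2 with the highest Pearson r of log2 CPM over the 13 libraries, among 10091 genes of at least 5 CPM. As the highest of so many values, and over libraries that share treatments, replicate numbers and depth, they are a description with no test. IRF4 ran with TRIB2 (r = 0.96, rho = 0.89) and with IKZF3 (r = 0.94, rho = 0.92), the lymphoid zinc finger factor Aiolos. IRF2 ran with LHPP (r = 0.97, rho = 0.91) and with PIAS1 (r = 0.96, rho = 0.88), a SUMO ligase. IRF5 ran with BTBD2 (r = 0.92, rho = 0.91) and CPNE1 (r = 0.92, rho = 0.91), IRF3 with SSR3 (r = 0.93, rho = 0.93) and DPH5 (r = 0.88, rho = 0.93), and IRF1 with SMURF2 (r = 0.87, rho = 0.88) and MAN1A2 (r = 0.85, rho = 0.82). Without chaetocin replicate 3 each of these 10 values of r lay between 0.85 and 0.97. IRF7 and IRF8 lay under 5 CPM and were not matched.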

How the data were processed

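The authors deposited raw counts of reads per gene for 45744 genes in 13 libraries. Per the submitters' processing notes, bcl2fastq 2.20.0.422, cutadapt 1.8.1 and HTSeq 0.6.1 were used on hg19; aligner, strand setting and annotation: not given in the sources used here. Groups came from sample titles, since the treatment tags of the F5446 libraries end in different digits.

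edgeR's filterByExpr kept 17252 genes. One fit of the 13 libraries was made with edgeR 4.0.16 in R 4.3.3 (TMM, robust quasi-likelihood test, two-sided, Benjamini-Hochberg adjustment over all tested genes, threshold 0.05). Log2 CPM used a prior count of 2. Alternatives were DESeq2 1.42.0, limma-voom (limma 3.58.1), other scalings and filters, fits of the 2 groups compared, a replicate block, a covariate dividing numbers 1 and 2 from 3 and 4, and each library left out. List values without chaetocin replicate 3, and GBP2 with each library left out, were added after seeing the data. Members and lists were chosen with earlier results of these data known. Named genes were the members, the called genes or 2 smallest p of each list, and the 2 genes most like each member of at least 5 CPM. Exon lengths and overlaps came from GENCODE 29 on GRCh38, another build; 92.3% of the table's gene IDs are in it. Promoter windows are RefSeq's. The pipeline was tested on simulated data of 16472 genes. For chaetocin against DMSO it called 61% of 100 genes changed by 2-fold and 98% of 100 changed by 4-fold, and also 9 unchanged genes. The changed genes all had means of at least 5 CPM, so these rates do not cover IRF7, IRF8 or IRF9. Simulated libraries were drawn independently, without the division by replicate number. Intervals are at 95%. Some genes of the lists are not reported here by name. Figures were drawn with matplotlib 3.10.9.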

Additional observations from a re-analysis of the deposited data

How the results depend on the processing

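The count of called members was 0 under every alternative run for the 4 comparisons of treatments and for the F-test over all groups, and 3 under RLE scaling, no filter and a minimum of 5 CPM for the replicate-number division. Of all genes, the division then called 2750 of 17252, 2815 of 28048 and 2740 of 10094. Apart from fits with single libraries left out, at most 11 of all genes were called in the 4 comparisons and at most 65 in the F-test. With single libraries left out the count of members called in the division ran from 1 to 4. IRF7, IRF8 and IRF9 were not tested under the minimum of 5 CPM. Without the filter IRF1 was called in the division by replicate number (edgeR adjusted p = 0.0114) and IRF4 was not (0.0578). A fit left with 1 DMSO library assumes that it varies like the other groups.

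Same-numbered libraries of different groups had correlations of 0.036 to 0.222 in their deviations from group means over 15 pairs, 8 of them over 0.1 (median 0.106). The 47 pairs of different numbers ran from -0.192 to 0.185 (median -0.068), 5 of them over 0.1. Of the 13 libraries, 10 correlated best with a library of their own number, a hint from the data and not the design. Since not every same-numbered pair was over 0.1, the numbers were not taken to pair the samples. With the replicate block 0 members were called, while the count of all called genes went from 0 to 10 for chaetocin, 0 for F5446 and 1 for romidepsin against DMSO, to 11 for chaetocin against F5446, and from 4 to 65 in the F-test over all groups, where 3 members in place of 1 had an unadjusted p under 0.05. The block turned the log2 fold change of IRF4 to 0.20 for chaetocin and 0.29 for F5446 against DMSO and to -0.089 for chaetocin against F5446, and that of IRF2 to 0.013 for chaetocin against F5446.

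Leaving out single libraries changed the sign of these uncalled log2 fold changes, whose ranges are given. For chaetocin against DMSO they ran from -0.30 to 0.068 for IRF2, -0.56 to 0.58 for IRF4, -0.16 to 0.50 for IRF5 and -0.20 to 0.041 for IRF7. For F5446 against DMSO they ran from -0.17 to 0.12 for IRF2, -0.87 to 0.26 for IRF4 and -0.061 to 0.13 for IRF7. For romidepsin against DMSO they ran from -0.26 to 0.0024 for IRF1, -0.23 to 0.047 for IRF2, -0.0081 to 0.098 for IRF3, -0.14 to 0.99 for IRF4 and -0.11 to 0.56 for IRF5. For chaetocin against F5446 they ran from -0.26 to 0.099 for IRF2, -0.045 to 0.019 for IRF3, -0.065 to 0.53 for IRF4 and -0.23 to 0.0054 for IRF7. IRF8 kept its sign in every comparison of treatments under all alternatives that tested it. So did IRF1 and IRF3 for chaetocin and for F5446 against DMSO, and IRF5 for F5446 against DMSO. IRF7 did so for romidepsin against DMSO, and IRF1 and IRF5 for chaetocin against F5446. The cause of the sign changes was not tested.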

Other observations

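The division by replicate number also ran through the genes around the factors, with calls in both directions. Of 15 IRF4 partners and circuit genes, 2 were called higher and 5 lower in numbers 3 and 4 than in 1 and 2, beside 15.8% of all tested genes called in either direction. BCL6, the repressor of follicular helper and germinal centre cells, was higher by 1.03 on the log2 scale (edgeR adjusted p = 0.000174). BATF, the AP-1 partner of IRF4, had a log2 difference of -0.61 (edgeR adjusted p = 0.00147), and IKZF3 one of -0.22 (edgeR adjusted p = 0.0471), both on the side of IRF4.

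Of 39 ISGF3-type genes, 3 were called higher and 7 lower in numbers 3 and 4. CMPK2, an interferon-induced mitochondrial nucleotide kinase, was the lowest of them with a log2 difference of -1.43 (edgeR adjusted p = 1.22e-10), and OAS3 was higher by 0.50 (edgeR adjusted p = 0.000328). Of 25 IRF1-type targets, 5 were called higher and 6 lower. Class I chains were among the higher (HLA-E by 0.78, HLA-C by 0.33 and HLA-B by 0.28). CIITA, CXCL10, GBP1, TAP1, PSMB8 and PSME2 were the lower ones, with log2 differences from -0.30 to -0.93. The class I chains are near-identical in parts, so their single values are uncertain. The labels do not say what a replicate number stands for.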
